A study of Homo sapiens with 12 samples.

Results

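The genes described here are 10 components of the NOTCH pathway, namely the receptors NOTCH1 and NOTCH2, the ligands JAG1 and JAG2, the nuclear factors RBPJ and MAML2, and the target genes HES1, HEY1, NRARP and DTX1. They were chosen by symbol, and each symbol matched a row of a table of 26210 genes that gave RNA levels in 12 libraries from human cell lines. All levels are FPKM, fragments per kilobase of transcript after scaling for library size (the scaling used is not stated), so that levels of different genes can be compared per length. L428, L1236 and KM-H2 are classical Hodgkin lymphoma (cHL) lines and stand for the malignant Hodgkin/Reed-Sternberg (HRS) cells of that disease. Namalwa, a Burkitt lymphoma line, and Reh, a B-cell precursor leukaemia line labelled as pro-B, were the control B-cell lines, and Reh was also studied after treatment with the phorbol ester PMA, an activator of protein kinase C signalling, at 2 ng/ml. The study asked which transcripts and long terminal repeats are active in HRS cells, and whether PMA induces them in a B-cell line. The other 5 conditions were untreated, and the labels name no engineered genotype. The cHL lines were grown in IMDM and both control lines in RPMI, so that lymphoma type and culture medium cannot be told apart. Each of the 6 conditions had 2 libraries of total RNA depleted of ribosomal RNA, called library 0 and library 1 here after the column names, which do not say which labelled replicate each of them is. Nothing in the labels says that the libraries of a condition came from separate cultures, and each line is a single established culture, so the p-values measure the spread between these libraries and not between tumours. The table held no read counts, so the depth behind each value is unknown.

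NOTCH proteins are receptors on the cell surface that respond to ligands of the Jagged (JAG) and Delta-like (DLL) families on neighbouring cells. Ligand binding lets ADAM metalloproteases and then the gamma-secretase complex cut the receptor, and its intracellular part travels to the nucleus, where it joins the DNA-binding protein RBPJ and a Mastermind-like (MAML) coactivator and switches on genes such as HES1, HEY1, NRARP and DTX1. In lymphocytes NOTCH1 drives commitment to the T lineage at the expense of B cells, NOTCH2 directs marginal zone B cells, and altered NOTCH signalling has been studied in HRS cells as part of their loss of B-cell identity.

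Markers listed for the cell types, chosen with earlier results of these data known, separated the lines in part. TNFRSF8, which encodes the HRS surface antigen CD30, was listed at 19.1 to 63.7 FPKM in the 6 cHL libraries and at 0.505 FPKM or less in the 6 others, whereas CD79A, a B-cell receptor component, was listed at 2.55 or less in the cHL libraries and at 168 or more in the others. CCL17 and MSC, further HRS markers, were likewise at 0.267 FPKM or less outside the cHL lines. Others crossed the labels. CSF1R was listed at 11.8 and 11.2 FPKM and ID2 at 246 and 333 in PMA-treated Reh, against at most 2.05 and 202 in any cHL library. The B-cell factor PAX5 was listed at 33.8 and 19.8 in L1236 against 11.3 and 17.4 in PMA-treated Reh. KM-H2 listed the T-cell gene CD3D (13.5 and 22.5) and the myeloid gene CD14 (5.79 and 4.56), against 0 and at most 0.139 in the other conditions. CD3G (3.25 and 2.85) and CD2 (0.779 and 1.01) were also listed in KM-H2, but the T-cell gene CD3E was at 0.197 and 0. LYZ, also a myeloid gene, was no higher in KM-H2 (0.591 and 0.255) than in untreated Reh (0.759 and 0.389). The myeloid gene MPO was instead at 24.8 and 32.0 in untreated Reh and at 0 in KM-H2. EGR1, an immediate response gene of PMA, was listed at 62.1 and 76.2 FPKM in treated and 0.138 or less in untreated Reh. Of the 5 libraries that listed the small nucleolar RNA SNORD95 (16925 to 132676 FPKM, against 0 in the other 7), 3 were library 1 of L428, L1236 and KM-H2 and the others were both PMA-treated Reh libraries. The ribosomal protein gene RPS27 was listed at 2.75 FPKM or less in 4 of these 5 libraries (7920 in KM-H2 library 1) and at 3981 to 10813 in the other 7, so a value near 0 in this table can be a failed estimate. PMA treatment and this difference between libraries cannot be told apart, since both treated Reh libraries and neither untreated Reh library listed SNORD95. A term for the SNORD95 class, used below, takes its size only from library 1 against library 0 of the 3 cHL lines. With it, the PMA differences are adjusted by that size, which does not separate PMA from the class within Reh.

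Promoter sequence is shown for 3 genes whose levels set conditions apart below: HES1, whose promoter is the textbook binding region of RBPJ, and NRARP and JAG1, which differed with PMA. Each run, written 5′ to 3′ along the gene, is the 250 bases before its RefSeq start, taken from the GRCh38.p14 table and found by exact match in GRCh37, whose coordinates are given and are those of the build the files use (hg19): chr3:193853687-193853936 on the plus strand for HES1, chr9:140196724-140196973 on the minus strand for NRARP and chr20:10654648-10654897 on the minus strand for JAG1. Capitals mark the RBPJ core TGGGAA, searched on both strands.
HES1: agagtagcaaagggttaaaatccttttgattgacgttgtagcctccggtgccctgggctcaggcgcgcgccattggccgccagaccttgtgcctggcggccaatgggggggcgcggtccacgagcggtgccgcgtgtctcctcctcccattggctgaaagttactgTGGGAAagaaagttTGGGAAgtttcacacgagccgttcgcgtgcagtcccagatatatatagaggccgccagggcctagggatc
NRARP: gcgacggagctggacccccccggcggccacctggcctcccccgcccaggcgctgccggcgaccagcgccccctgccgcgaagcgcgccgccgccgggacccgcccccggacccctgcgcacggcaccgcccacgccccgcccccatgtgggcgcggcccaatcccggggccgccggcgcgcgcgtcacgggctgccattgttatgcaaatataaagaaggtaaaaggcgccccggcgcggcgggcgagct
JAG1: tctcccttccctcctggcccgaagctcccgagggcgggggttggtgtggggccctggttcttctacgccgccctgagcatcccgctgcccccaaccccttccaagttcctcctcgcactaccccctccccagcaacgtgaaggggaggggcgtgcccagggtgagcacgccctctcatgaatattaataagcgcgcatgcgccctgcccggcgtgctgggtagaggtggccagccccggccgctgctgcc
HES1 held the core at -84 and -70 from its start, 14 bases apart and in the same orientation, and the NRARP and JAG1 windows did not hold these letters. Over all RefSeq windows of this length, 7321 of 35116 (20.8%) held the core at least once and 2.90% held it 2 or more times. The motif TGANTCA of AP-1, a factor activated by PMA, which reads the same on both strands apart from its middle base and does not overlap the RBPJ core in letters, was in 6.57% of all windows and in none of these 3. RefSeq windows were found for 8 of the 10 genes, and DTX1 and HEY1 had no entry. A match of letters is a description and does not show binding.

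Of the 10 genes, NOTCH2 and MAML2 were higher and DTX1 was lower in all 6 cHL libraries than in all 4 untreated control libraries, and the other 7 overlapped between these groups. Of all tested genes 17.6% did not overlap between them. After PMA treatment of Reh, JAG1, NRARP, MAML2 and NOTCH2 were higher and DTX1 was lower. Differences were tested with limma on log2(FPKM + 1) over all 12 libraries, with Benjamini-Hochberg adjustment over the 14679 genes that reached 1 FPKM in 2 or more libraries, and a gene was called at an adjusted p under 0.05. All fold changes are on this scale, which understates changes of low genes. All 10 genes passed the filter, but JAG2 and HEY1 did so only through L1236 and KM-H2 and JAG1 only through L428 and PMA-treated Reh, so that a difference was built into their passing and their p-values are read with this limit. The calls of these 3 genes reported below against the controls or untreated Reh also held with no filter, except that of JAG2 in KM-H2. Between the mean of the 3 cHL lines and the mean of untreated Reh and Namalwa, 7 of the 10 genes were called, 5 higher and 2 lower, where 55.4% of all tested genes were called. The single lines were compared with the same 4 control libraries, so these comparisons share their controls: 5 genes were called in L428 (46.9% of all tested genes), 7 in L1236 (45.4%) and 6 in KM-H2 (47.1%). PMA treatment of Reh gave 5 calls (31.8% of all tested genes; 3 calls without Reh library 1 or PMA-treated library 0), and Namalwa against Reh gave 3 (25.1%). The 10 genes were chosen for their pathway, and the share called is given beside the background only as a count. With the line instead of the library as the unit, an exact two-sided permutation test of 3 lines against 2 cannot give a p below 0.1, and NOTCH2, MAML2 and DTX1 reached this smallest value (p = 0.1, 0.333 after adjustment over the 10 genes).

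**Figure D1:**
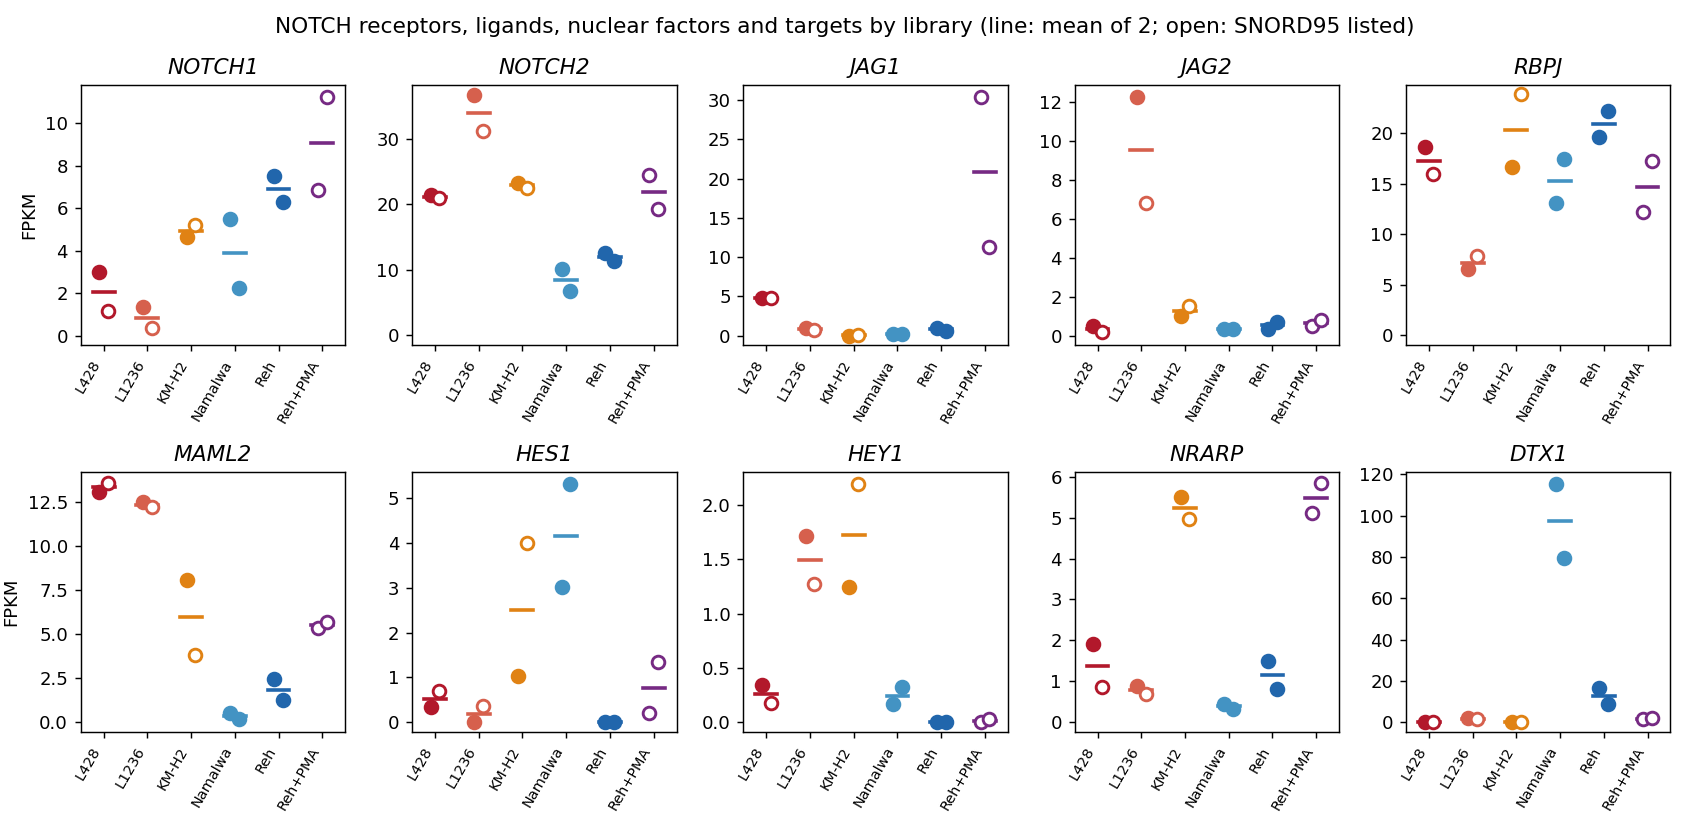
RNA level in FPKM (linear vertical axis, own scale for each gene) of the 10 NOTCH pathway genes in the 2 libraries of each of 6 conditions; points are libraries, lines the mean of 2, and open points the libraries that listed SNORD95. The 6 cHL libraries of NOTCH2 lie at 21.0 to 36.7 FPKM, all above the 4 untreated control libraries, and DTX1 is highest in Namalwa at 79.7 and 115.5 FPKM.

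NOTCH2 was called higher in each cHL line than in the controls, whereas NOTCH1 was called lower in L428 and L1236 only. NOTCH2, on the minus strand at chr1:120454176-120643366 (GRCh37), had the highest mean of the 10 in each cHL line, at 21.4 and 21.0 FPKM in L428, 36.7 and 31.1 in L1236 and 23.3 and 22.4 in KM-H2. The controls were lower, at 10.1 and 6.84 FPKM in Namalwa and 12.6 and 11.4 in untreated Reh, while PMA-treated Reh gave 24.4 and 19.3. L1236 was the highest and did not overlap any other condition, KM-H2, PMA-treated Reh and L428 overlapped as neighbours, and untreated Reh and Namalwa lay below them. NOTCH2 was higher in the cHL lines than in controls by 1.26 ± 0.138 (log2 difference, SE; limma, adjusted p = 5.64e-05), with 1.66 in L1236, 1.12 in KM-H2 and 1.01 in L428, and the L428 call was lost when all libraries were rescaled to the same sum (adjusted p = 0.105). After PMA it was higher by 0.81 ± 0.213 (adjusted p = 0.0197), a call that was lost on that rescaling (0.136) and without Reh library 0 (0.0732), Reh library 1 (0.108) or PMA-treated library 0 (0.129). NOTCH2 has a near-identical partial copy, NOTCH2NL, and how the counting divided reads between them is uncertain. NOTCH2NL was listed at 6.84 to 19.4 FPKM in the cHL libraries, 3.34 to 10.2 in the untreated controls and 2.62 and 2.18 in PMA-treated Reh, so it was not higher after PMA.

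NOTCH1, at chr9:139388885-139440500 on the minus strand, was low in 2 of the 3 cHL lines. Its level was 2.98 and 1.16 FPKM in L428, 1.34 and 0.339 in L1236 and 4.66 and 5.20 in KM-H2, against 5.48 and 2.26 in Namalwa, 7.52 and 6.29 in Reh and 6.85 and 11.3 after PMA. L428 and L1236 overlapped each other and lay below both Reh conditions. L428 also overlapped Namalwa, and KM-H2 lay within the range of Namalwa. NOTCH1 was lower in the cHL lines by -0.94 ± 0.279 (adjusted p = 0.0177), a difference made up of -1.77 in L1236 (adjusted p = 0.00416), -1.04 in L428 (0.0468) and -0.02 in KM-H2 (interval of 95%, -0.87 to 0.82). These NOTCH1 calls rested on few libraries. The pooled call was lost without Namalwa library 0 (adjusted p = 0.0758), without Reh library 0 (0.0634) and with the SNORD95 class as a term (-0.68, 0.0853), the L1236 call was lost without L1236 library 1 (-1.36, 0.0603), and the L428 call was lost in 10 of 15 alternatives, among them without L428 library 1 (-0.60, 0.355), Namalwa library 0 (0.117), Reh library 0 (0.107) and Reh library 1 (0.0788). PMA did not give a call for NOTCH1, with a difference of 0.32 and an interval of -0.66 to 1.29. In bulk RNA, fewer cells that express a gene and less RNA in each cell cannot be told apart, here or below.

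Each ligand was high in a different condition. JAG1, at chr20:10618332-10654647 on the minus strand, was listed at 30.4 and 11.3 FPKM in PMA-treated Reh against 0.946 and 0.602 in untreated Reh. Among the untreated lines only L428 exceeded 1 FPKM, with 4.80 and 4.84, and JAG1 was listed at 0.910 and 0.652 in L1236, 0.227 and 0.258 in Namalwa and 0 and 0.0601 in KM-H2. PMA-treated Reh and L428 each stood clear of the next condition, while L1236 and untreated Reh overlapped. The increase with PMA was 3.48 ± 0.359 (adjusted p = 0.000191), the largest of the 10 genes that could be given a fold change, and it was 3.52 (adjusted p = 0.00187) with the SNORD95 class as a term. L428 was higher than the controls by 1.97 ± 0.311 (adjusted p = 0.000758), a call that was lost only when the 3 cHL libraries listing SNORD95 were left out (1.97, 0.0521). Over the 3 cHL lines together JAG1 was not called (0.57, interval 0.05 to 1.09, adjusted p = 0.0631), but it was called when only the conditions compared were fitted (0.0015). In KM-H2 (-0.52, interval -1.23 to 0.18) it was called lower in that fit (0.0116) and with a pseudocount of 0.1 (0.00315).

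JAG2, at chr14:105607319-105635161 on the minus strand, was listed at 12.2 and 6.79 FPKM in L1236. KM-H2 followed at 0.980 and 1.51 FPKM, and the other 8 libraries lay between 0.184 and 0.801. L1236 was thus the only condition well above 1 FPKM, higher than the controls by 2.84 ± 0.233. Since JAG2 passed the filter through this line and KM-H2 library 1, its p-value (1.11e-05 after adjustment) is no independent support. The pooled cHL difference of 1.13 ± 0.173 (adjusted p = 0.000488) contained this line, since L428 differed by -0.09 (interval -0.62 to 0.44) and KM-H2 by 0.65 ± 0.233 (adjusted p = 0.0448). The KM-H2 call was lost in 12 of 15 alternatives, including the omission of any of the 6 KM-H2 and control libraries (adjusted p = 0.0571 to 0.246). JAG2 was not called after PMA (0.11, interval -0.49 to 0.72). L428 and PMA-treated Reh were therefore the JAG1-containing conditions and L1236 the JAG2-containing one, whereas KM-H2 had little of either.

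Of the nuclear factors, MAML2 was higher in every cHL line and RBPJ was called in L1236 only. MAML2, a coactivator that bridges the NOTCH complex to histone acetyltransferases, lies at chr11:95709762-96076359 on the minus strand. Its level was 13.1 and 13.6 FPKM in L428, 12.5 and 12.2 in L1236 and 8.07 and 3.83 in KM-H2, against 0.528 and 0.200 in Namalwa, 2.45 and 1.26 in Reh and 5.36 and 5.71 after PMA. All 6 cHL libraries were above all 4 untreated control libraries, and KM-H2 overlapped PMA-treated Reh. MAML2 was higher in the cHL lines by 2.48 ± 0.204 (adjusted p = 9.07e-06), by 2.88 in L428, 2.78 in L1236 and 1.77 in KM-H2, and these 4 calls held in every alternative. It was also higher after PMA by 1.23 ± 0.317 (adjusted p = 0.0179), which was 1.52 (0.0241) with the SNORD95 class as a term but was not called without Reh library 1 (0.92, 0.131), PMA-treated library 0 (0.0789) or PMA-treated library 1 (0.0819). Namalwa was lower than Reh by -1.05 ± 0.317 (adjusted p = 0.0395), and this call was lost in 8 of 13 alternatives, without Namalwa library 0 (0.0751), Namalwa library 1 (0.191) and Reh library 0 (0.269) among them.

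RBPJ, the DNA-binding partner of all NOTCH receptors, lies at chr4:26165077-26436753 on the plus strand. It was present in every library, at 18.6 and 15.9 FPKM in L428, 16.7 and 23.9 in KM-H2, 13.1 and 17.5 in Namalwa, 19.6 and 22.2 in Reh and 12.2 and 17.2 after PMA, and at 6.58 and 7.81 in L1236. Neighbours in the order of levels overlapped from Reh down to PMA-treated Reh, and only L1236 stood apart, lower than the controls by -1.20 ± 0.218 (adjusted p = 0.00173). The other single-line differences were -0.04 in L428 (interval -0.54 to 0.45) and 0.16 in KM-H2 (-0.33 to 0.65), and PMA gave -0.50 (-1.07 to 0.07). The pooled cHL difference (-0.36, adjusted p = 0.0868) was called lower without KM-H2 library 1 (-0.44, 0.0421) and with the library number, 0 or 1, as a replicate block (0.0492).

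**Figure D2:**
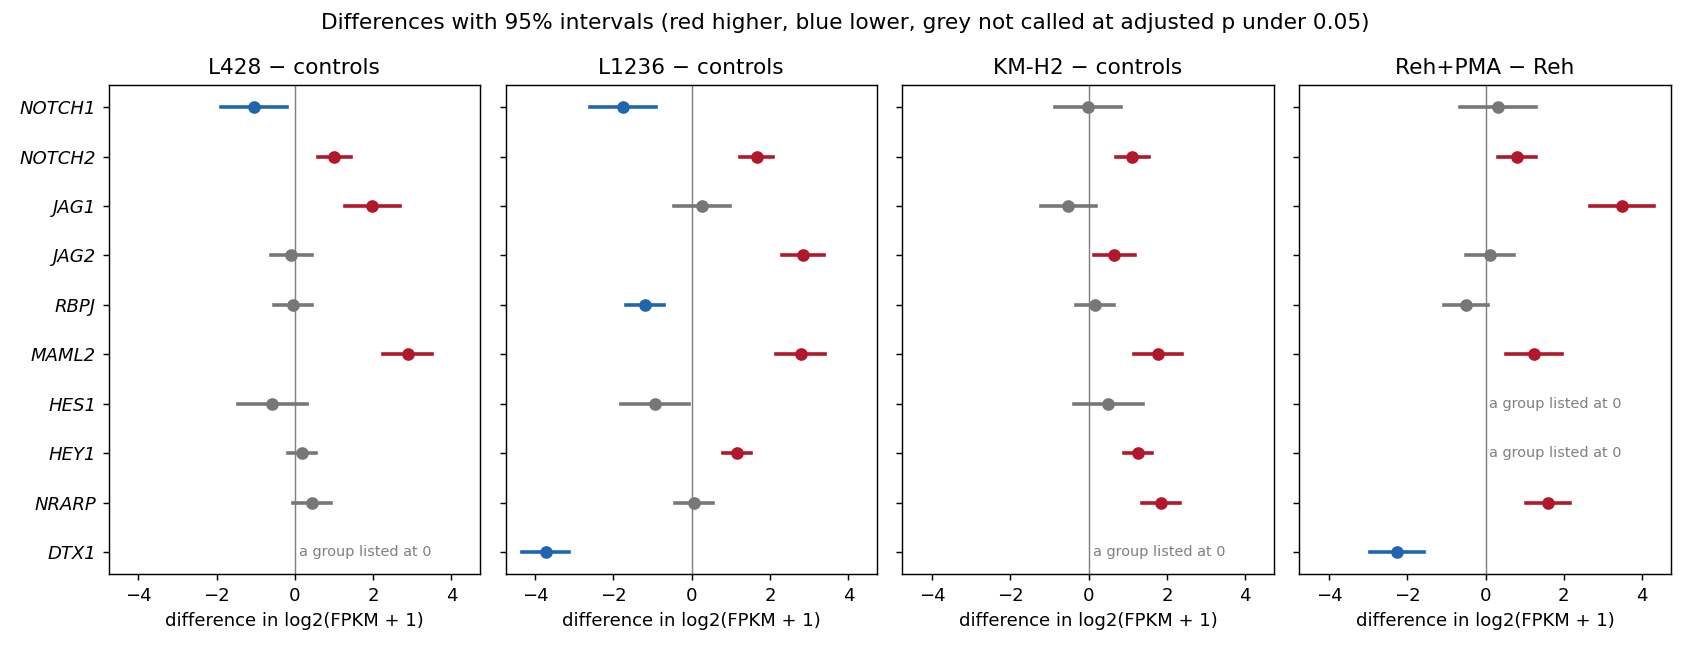
Differences in log2(FPKM + 1) of the 10 genes (horizontal axis, shared range) for each cHL line minus the mean of untreated Reh and Namalwa, and for PMA-treated minus untreated Reh, with 95% intervals as bars. Red and blue mark called differences and grey those not called; no value is drawn where all libraries of a group were listed at 0. MAML2 and NOTCH2 lie to the right of 0 in all 4 panels.

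The target genes did not move as a group. DTX1, an E3 ubiquitin ligase and a NOTCH target in B cells (chr12:113494535-113535833, plus strand), was the gene that separated the lines most clearly. It was listed at 115.5 and 79.7 FPKM in Namalwa, 16.4 and 8.66 in Reh, 1.41 and 2.00 in PMA-treated Reh and 1.96 and 1.41 in L1236, and at 0 in all 4 libraries of L428 and KM-H2. Namalwa stood above Reh, Reh above the others, and PMA-treated Reh overlapped L1236. DTX1 was lower in L1236 than in the controls by -3.73 ± 0.263 (adjusted p = 4.13e-06) and was called lower in L428 (6.69e-07) and KM-H2 (6.14e-07), for which no fold change is given because both lines were listed at 0. It was lower after PMA by -2.27 ± 0.304 (adjusted p = 0.000751), and by -2.17 (0.00657) with the SNORD95 class as a term, and Namalwa exceeded Reh by 2.90 ± 0.304 (9.6e-05). None of these DTX1 calls was lost in any alternative. Defining B-cell markers were also lower in the cHL lines. The sum over CD79A, CD79B, MS4A1, PAX5 and EBF1 was 858 and 1260 FPKM in Namalwa, 876 and 961 in Reh and 2.55 to 34.7 in the cHL libraries, with 4, 4 and 2 of the 5 at 1 FPKM or less in both libraries of L428, L1236 and KM-H2 and MS4A1 at 0 in all of them. Between Namalwa and Reh, MS4A1 was higher in Namalwa (5.98 and 14.6 against 0.161 and 0.229 FPKM, adjusted p = 5.79e-05), EBF1 was lower (-2.31, 0.000156) and the other 3 were not called. With PMA it was 1022 and 1221 FPKM, of which CD79A made up 947 and 1102 (336 and 429 without PMA, not called). Of the 5 markers 3 were lower after PMA, CD79B by -2.78 (adjusted p = 0.000583), PAX5 by -1.97 (0.00449) and EBF1 by -1.90 (0.000859). The sum over 5 precursor markers (DNTT, RAG1, RAG2, VPREB1 and IGLL1) was 1111 and 1197 FPKM in untreated and 124 and 130 in treated Reh. This fall was mainly in RAG1, RAG2 and IGLL1. DNTT went from 87.9 and 103 to 75.0 and 41.6, and VPREB1 was at 0 in Reh with and without PMA. Whether these markers have a part in the DTX1 differences was not tested.

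NRARP, an inhibitor that binds the NOTCH intracellular domain and is itself a target (chr9:140194083-140196723, minus strand), was high in KM-H2 and after PMA. Its level was 5.51 and 4.96 FPKM in KM-H2 and 5.10 and 5.85 in PMA-treated Reh, against 1.91 and 0.850 in L428, 0.878 and 0.679 in L1236, 0.457 and 0.331 in Namalwa and 1.50 and 0.804 in untreated Reh. KM-H2 and PMA-treated Reh overlapped each other and lay above all other libraries. NRARP was higher in KM-H2 than in the controls by 1.86 ± 0.215 (adjusted p = 0.000105) and higher after PMA by 1.61 ± 0.249 (0.00163; 1.92 and 0.0026 with the SNORD95 class as a term). L428 (0.43, interval -0.06 to 0.92) and L1236 (0.05, interval -0.44 to 0.53) were not called. L428 was called with the SNORD95 class as a term (0.59, adjusted p = 0.0484) and without L428 library 1 (0.76, 0.0334), but without L428 library 0 it was at 0.11 (0.745). The pooled cHL call (0.78 ± 0.160, adjusted p = 0.00281) contained the KM-H2 difference.

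HES1 and HEY1, the transcriptional repressors most often used as readouts of NOTCH activity, were at 5.32 FPKM or less in every library. HES1, at chr3:193853937-193856521 on the plus strand and with the paired RBPJ cores printed above, was listed at 3.01 and 5.32 FPKM in Namalwa and 1.03 and 3.99 in KM-H2. It was listed at 0.339 and 0.694 in L428, 0 and 0.369 in L1236, 0 and 0 in Reh and 0.201 and 1.33 after PMA. Namalwa overlapped KM-H2, and HES1 was called higher in Namalwa than in Reh (adjusted p = 0.00432) in every alternative, with no fold change because Reh was at 0. No cHL line was called against the controls, with differences of -0.57 (interval -1.45 to 0.30) in L428, -0.94 (-1.82 to -0.06, adjusted p = 0.0779) in L1236 and 0.50 (-0.38 to 1.38) in KM-H2, and neither was PMA-treated Reh against Reh (0.246). The L1236 difference was called lower with the SNORD95 class as a term (-1.29, adjusted p = 0.0155), with the replicate block (0.0143) and with only the conditions compared (0.0299).

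HEY1 was listed at 1.25 and 2.2 FPKM in KM-H2 and 1.72 and 1.28 in L1236. It was listed at 0.344 and 0.182 in L428, 0.164 and 0.328 in Namalwa, 0 and 0 in Reh and 0 and 0.0329 after PMA. KM-H2 and L1236 overlapped each other and lay above all other conditions, by 1.27 ± 0.159 (adjusted p = 0.000177) and 1.16 ± 0.159 (0.000325) relative to the controls, whereas L428 overlapped Namalwa and differed by 0.18 (interval -0.18 to 0.54). The targets thus gave a different order of conditions for each gene: Namalwa was highest for DTX1 and HES1 and lowest for NRARP.

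Within the cHL lines, KM-H2 was compared with the mean of L428 and L1236. Of the 10 genes 8 were called, 5 higher and 3 lower, where 39.2% of all tested genes were called. NOTCH1 (1.38 ± 0.374, adjusted p = 0.0169), NRARP (1.62 ± 0.215, 0.000338), HES1 (1.26, 0.0296), RBPJ (0.78, 0.0191) and HEY1 (0.60, 0.0154) were higher in KM-H2, and JAG1 (-1.64, 0.00272), MAML2 (-1.06, 0.0134) and JAG2 (-0.72, 0.0352) were lower. The JAG2 call was lost in 9 of 15 alternatives, among them the limma fit with no filter (adjusted p = 0.0538). L428 and L1236 did not overlap in 7 of the 10 genes (NOTCH2, JAG1, JAG2, HEY1, DTX1, RBPJ and MAML2), where 60.7% of all tested genes did not overlap, so their mean describes neither line for these genes. Without KM-H2 library 1, which listed SNORD95, 2 of the 10 genes were called (4876 of all 14679 tested genes, against 5758), and HES1 was at 0.61 (adjusted p = 0.283), HEY1 at 0.34 (0.0857), MAML2 at -0.61 (0.118), RBPJ at 0.53 (0.146), NOTCH1 at 1.31 (0.0999) and JAG2 at -0.89 (0.0562). Without L1236 library 0 there were 5 calls (5313 of all tested genes), and NRARP was the only gene called in every alternative. NOTCH2 was not called, with a difference of -0.22 and an interval of -0.64 to 0.20. DTX1 was not called either (adjusted p = 0.0597) but was called lower with a pseudocount of 0.1 (0.00127), with only the conditions compared (0.00953) and with the replicate block (0.0492).

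The wider pathway was followed through a list of 62 further genes, of which 56 passed the filter. Over the 3 cHL lines 35 of the 56 (62.5%, against 55.4% of all tested genes) were called against the controls, 15 higher and 20 lower, with a median difference of -0.03 against 0.02 over all tested genes. By line, 8 were higher and 17 lower in L428 (44.6% called, against 46.9% of all tested genes), 11 and 15 in L1236 (46.4% against 45.4%), and 11 and 18 in KM-H2 (51.8% against 47.1%), and PMA treatment gave 11 and 12 (41.1% against 31.8%). The counts by role that follow are small and are descriptions beside the same backgrounds. The receptors NOTCH3 and NOTCH4 stayed at or below 0.317 and 0.585 FPKM in every library. NOTCH1 and NOTCH2 were above both in every library, though NOTCH1 was only at 1.34 and 0.339 FPKM in L1236. NEURL1 (at most 0.148 FPKM), HES2 (0.0853), HEYL (0.646) and PTCRA (0.419), a NOTCH target in developing T cells, were similarly low.

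**Figure D3:**
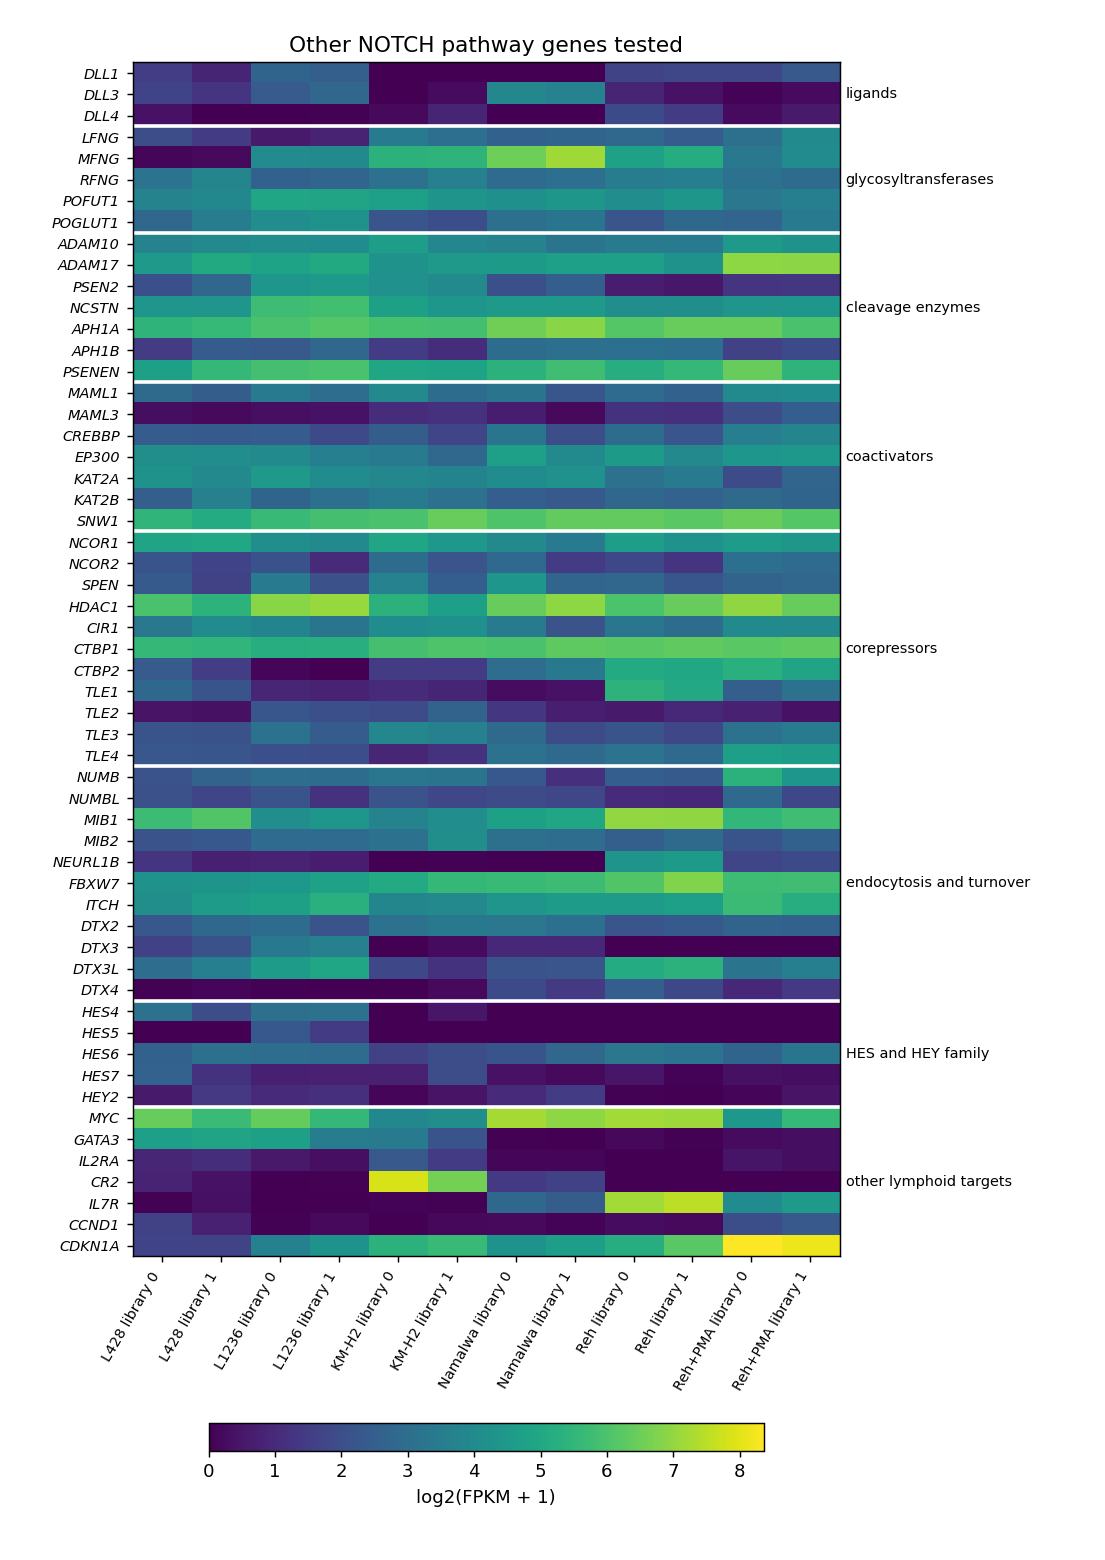
RNA level as log2(FPKM + 1) (colour scale) of the 56 further NOTCH pathway genes that passed the filter (rows, grouped by role) in the 12 libraries (columns, 2 for each condition). IL7R is bright only in the Reh columns and CR2 only in KM-H2, and MFNG is dark in both L428 libraries.

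Upstream of the receptors, 3 of 7 cleavage enzymes were higher and 2 lower in the cHL lines than in the controls, where 55.4% of all tested genes were called, and after PMA 2 were higher and 1 lower, where 31.8% were called. ADAM17, which can make the first cut and is named after its values were seen, rose with PMA from 25.7 and 18.2 to 122 and 119 FPKM (2.42, adjusted p = 0.000183). Of the 5 glycosyltransferases that act on NOTCH, 2 were lower in the pooled cHL lines and none was higher, beside 55.4% of all tested genes called. By line, 2 were lower in L428 (46.9% of all tested genes called), all 5 were called in L1236 (2 higher and 3 lower, beside 45.4%) and none in KM-H2 (47.1%). MFNG (manic fringe) was listed at 0.0783 and 0.152 FPKM in L428, 15.4 and 14.8 in L1236 and 40.7 and 42.5 in KM-H2, against 90.6 and 142 in Namalwa and 26.6 and 35.2 in Reh, a difference of -5.75 in L428 (adjusted p = 3.02e-07) and of 3.33 between KM-H2 and the other cHL lines (8.36e-06).

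Among corepressors and turnover factors changes went both ways, 4 higher and 4 lower of 11 corepressors and 2 higher and 5 lower of 11 turnover factors in the cHL lines (55.4% of all tested genes were called). CTBP2, a corepressor, was listed at 0.103 and 0 FPKM in L1236 and 1.73 to 4.32 in the other cHL libraries, against 6.92 to 33.9 in the untreated controls, and was lower in the cHL lines by -2.96 (adjusted p = 2.07e-06). TLE1, a Groucho-type corepressor that works with HES proteins, was listed at 41.6 and 31.9 FPKM in Reh, 4.76 and 7.65 after PMA and 0.208 and 0.325 in Namalwa, a difference of -4.88 between Namalwa and Reh (adjusted p = 2.25e-06). NEURL1B, a ubiquitin ligase for NOTCH ligands, fell with PMA from 19.1 and 22.3 FPKM to 2.33 and 2.66 (-2.63, adjusted p = 3.13e-05), while Namalwa was at 0 in both libraries.

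Further targets were counted in the same way. Of the 5 tested HES and HEY relatives 3 were higher in the pooled cHL lines and none lower, beside 55.4% of all tested genes called. By line, 2 were higher in L428 (46.9% called), 2 higher in L1236 (45.4%) and 1 lower in KM-H2 (47.1%). Of 7 other targets known in lymphocytes 3 were higher and 3 lower in the pooled lines, beside the same 55.4%. HES4, HES5, HES7, GATA3 and IL2RA reached 1 FPKM only in cHL libraries, so a difference was built into their passing the filter. IL7R reached it only outside the cHL lines. The p-values of GATA3 and IL7R against the controls are read with this limit. GATA3, a T-cell transcription factor that is also found in HRS cells, was listed at 25.2 and 28.4 FPKM in L428, 25.7 and 10.3 in L1236 and 9.58 and 3.54 in KM-H2 and at 0.232 or less in all other libraries (3.83 ± 0.291, adjusted p = 4.7e-06). IL7R, the interleukin-7 receptor, was listed at 146 and 183 FPKM in Reh, 15.4 and 21.4 after PMA and 6.11 and 4.54 in Namalwa and at 0.302 or less in the cHL lines (-4.91, adjusted p = 5.25e-08; -3.10 with PMA, 3.64e-05). CR2, the complement receptor CD21 and a NOTCH2 target in marginal zone B cells, was listed at 231 and 97.7 FPKM in KM-H2 and at 2.12 or less elsewhere, a difference of 6.48 from the controls (adjusted p = 3.56e-07) and of 6.93 from the other cHL lines (3.53e-07). CDKN1A, the cell-cycle inhibitor p21, was listed at 2.2 and 2.28 FPKM in L428 and 11.7 and 18.7 in L1236 against 40.5 and 49.8 in KM-H2, which was higher by 2.68 (adjusted p = 0.000104), and it rose with PMA from 35.9 and 74.1 to 328 and 286 FPKM (2.54, adjusted p = 0.000769). MYC was lower in KM-H2 (14.0 and 16.6 FPKM) than in the controls (123 to 148 FPKM) by -3.11 (adjusted p = 9.33e-05). L428 (84.1 and 51.0 FPKM) and L1236 (82.6 and 46.8) were also below every untreated control library, and PMA-treated Reh was at 21.1 and 47.8.

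As a description of likeness over the 12 libraries, the genes whose log2 levels correlated best with the 3 most variable NOTCH genes were found. UPF3A, NCF1 and LOC100506071 were closest to DTX1 (Pearson r = 0.98, 0.98 and 0.97), SNX9, TRIM69 and NRAS to JAG1 (0.97, 0.96 and 0.96), and ELL2, KLF3 and C1RL-AS1 to MAML2 (0.98, 0.97 and 0.95). The points come in pairs of libraries from the same condition, so they are fewer than 12 independent values. The rank correlations were 0.86, 0.78 and 0.76 for JAG1 and 0.86 for DTX1 with LOC100506071.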

How the data were processed

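Total RNA was made into stranded, ribosomal RNA-depleted libraries in duplicate from 6 conditions. Per the submitters' processing notes reads were aligned with TopHat2 2.0.11 to hg19 and normalised with Cuffnorm 2.2.1. The annotation and the scaling method are not given in the sources used here. The values deposited by the authors are FPKM per gene, with no counts. Summed FPKM were 659355 to 1124625 per library, 10835 to 12115 genes reached 1 FPKM, and libraries of a condition correlated at r = 0.906 to 0.985. Exact zeros are reported as listed.

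FPKM were tested as log2(FPKM + 1) with limma 3.58.1 (R 4.3.3, trended eBayes, 6 condition means, 6 residual degrees of freedom) in genes of at least 1 FPKM in 2 or more libraries. The script was tested on simulated data. The 10 genes and all lists were chosen with earlier results of these data known. Named were the 10 genes, the 3 called pathway genes of largest log2 fold change per comparison, pathway genes at or below 1 FPKM in all conditions, and, for the 3 NOTCH genes of largest range, the 3 best-correlated genes. Some genes of the lists are not reported here. Two-sided exact permutation tests used line means. Alternatives were a pseudocount of 0.1, no filter, rescaling to equal sums (TPM), quantile normalisation, a fit of only the conditions compared, a replicate block, a minimum log2 fold change of 1 and omission of each library. A term for libraries listing SNORD95, and omission of the cHL libraries listing it, were added after seeing the data. Sequences came from RefSeq and gene positions from GENCODE on GRCh37.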

Additional observations from a re-analysis of the deposited data

Results flagged for a closer look

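The comparison of KM-H2 with L428 and L1236 tested whether cHL lines differed in their change from the shared controls, and 8 of the 10 genes differed, where 39.2% of all tested genes were called (limma, adjusted p under 0.05; values are log2 differences with KM-H2 first). NOTCH1 differed by 1.38 and NRARP by 1.62. HES1 differed by 1.26, RBPJ by 0.78 and HEY1 by 0.60. JAG1 differed by -1.64, MAML2 by -1.06 and JAG2 by -0.72. Without KM-H2 library 1 only 2 of these genes were called (over all genes 4876, against 5758), with HES1 at 0.61, HEY1 at 0.34, RBPJ at 0.53 and MAML2 at -0.61, and 3 of the 10 were called (DTX1 among them) when only the conditions compared were fitted.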

How the results depend on the processing

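Of 41 calls of the 10 genes, 23 held in every alternative, 18 were lost in at least 1 and none was reversed, and differences that were not called became called 15 times over all alternatives. The number of the 10 genes called moved by over 1.5 times as follows. Rescaling to equal sums gave 3 in L428 (from 5), 3 with PMA (from 5) and 5 between KM-H2 and the other cHL lines (from 8), and a fit of only the conditions compared gave 3 for the last. A minimum log2 fold change of 1 gave 4 for the cHL lines (from 7) and 5 for KM-H2 against the other cHL lines, and leaving out the cHL libraries that listed SNORD95 gave 3 in L428 and 2 for KM-H2 against the others. Leaving out single libraries changed the number of these genes called in every comparison, most for KM-H2 against the others, and the number called over all genes changed as well. In these fits the library that was alone in its condition was assumed to vary like the rest. The cause of these changes was not tested.

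Direction turned only for genes that were not called. HES1 in the cHL lines became 0.021 at a pseudocount of 0.1, and quantile normalisation turned NRARP in L1236 (-0.15) and JAG2 between Namalwa and Reh (0.13). With the SNORD95 class as a term NOTCH1 in KM-H2 became 0.24 and JAG2 in L428 0.036, and without the cHL libraries listing it JAG2 in L428 became 0.080, RBPJ 0.062 in L428 and -0.088 in KM-H2, and HES1 in KM-H2 -0.15. Without single libraries the range was -0.27 to 0.22 for NOTCH1, -0.15 to 1.15 for HES1 and -0.088 to 0.41 for RBPJ in KM-H2, -0.071 to 0.16 for NRARP in L1236, -0.26 to 0.080 for JAG2 and -0.15 to 0.062 for RBPJ in L428, and -0.0048 to 0.64 for NOTCH1 and -0.036 to 0.26 for JAG2 with PMA.

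Over all genes, the minimum log2 fold change lowered the calls from 8126 to 3614 for the cHL lines, 6882 to 4404 for L428, 6662 to 4251 for L1236, 6920 to 4456 for KM-H2 and 5758 to 3492 for KM-H2 against the others. On rescaling, calls fell from 6882 to 5778 in L428 and from 5758 to 4510 for KM-H2 against the others (4016 with only the conditions compared, 4501 without the cHL libraries listing SNORD95). PMA calls fell from 4675 to 3010 on rescaling and to 2401 to 2550 without Reh library 0, Reh library 1 or PMA-treated library 0, and Namalwa calls from 3680 to 2346 without Reh library 0. Rescaling moved the median difference over all genes in L428 from -0.01 to -0.20.

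The labels number the replicates but the column names do not carry these numbers, so a fit with a replicate block used the column suffix. It called 8 of the 10 genes for the cHL lines, 5 in L428, 8 in L1236, 5 in KM-H2, 5 with PMA, 3 in Namalwa and 9 for KM-H2 against the others, beside 8423, 7181, 7003, 7252, 5115, 3919 and 6061 of all 14679 tested genes. Libraries of the same suffix deviated together with r of -0.04 to 0.68 over 15 pairs of conditions, above 0.1 in 6. The 3 pairs among the cHL lines, whose library 1 lists SNORD95, were all above it, at 0.30 to 0.68. Namalwa with untreated Reh was at 0.36, though neither listed SNORD95, and Namalwa with KM-H2 and L1236 was at 0.19 and 0.17. The main fit did not pair samples by suffix, and whether the suffix marks a shared batch was not tested. Depth is unknown, and values below 1 FPKM (most of HEY1 and HES1) are the least certain.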
